A study of Mus musculus with 18 samples.

Results

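The lysosome genes described here are the 105 genes of the deposited table whose KEGG pathway annotation holds the term Lysosome and whose values averaged 10 or more over the 18 livers. They were drawn from 31165 genes. The term stood beside 122 genes, of which 11 were left out by symbol (9 genes starting Atp6, which belong to the proton pump family, together with Ctsg and Slc11a2) and 6 by their mean alone. Just above the minimum of 10 lay Ap1m2 (mean 15.8), Ctsw (31.8) and Ap4b1 (39.2), and just below it lay Lamp3 (3.67), Ap3b2 (1.78) and Psapl1 (1.11). The choice used an annotation, symbols to leave out and a mean over all libraries, and it was made with earlier results of these data known. By that rule every member passed the filter on low values.

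Lysosomes are acidic organelles in which proteases, glycosidases, sulfatases, lipases and nucleases break down material taken in from outside the cell or delivered by autophagy. Newly made hydrolases receive a mannose 6-phosphate tag in the Golgi, are bound by mannose 6-phosphate receptors, and leave in vesicles built from adaptor complexes, GGA proteins and clathrin. In the liver, hepatocytes use lysosomes in autophagy and in the turnover of lipoproteins and glycogen, and Kupffer cells, the resident macrophages, use them to digest engulfed cells and particles. The liver around birth also holds blood-forming cells, which leave it over the first weeks of life, and several lysosomal proteins are known mainly from blood cells.

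The livers came from C57BL/6J mouse pups that received miR-497a-5p mimic, a synthetic copy of that microRNA, or a scrambled control mimic by intraperitoneal injection on postnatal days 1 and 3, so that every group carried an injected oligonucleotide and none was uninjected. The organ was collected on P5, P7 or P14 (postnatal days), which gave 6 groups of 3 libraries. Doses of 10 and of 100 mg per kg appear in the labels' protocol, but the labels of single libraries do not say which was given, and they do not tie pups to litters, so the p-values measure the spread between these livers. A small piece of whole liver was used for each library, and fewer cells of a type and less RNA per cell cannot be told apart in such bulk samples. The question behind the design, as the submitters state it, is whether the injected mimic changes candidate target mRNAs in developing organs.

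Values are gene counts that the authors had scaled to a common library size and rounded, called scaled counts below. They summed to between 3954405 and 4248257 per library, and the lysosome genes made up 1.24% to 1.36% of that sum in every library. Divided by the length of the longest annotated transcript and averaged over the 18 livers, the members had a median of 147 scaled counts per kb, against 61.3 for all genes tested. The highest were Psap, the precursor of the saposins that help lipid hydrolases (568.8 per kb), Lamp1, a main protein of the lysosomal membrane (558.2), the carboxypeptidase cathepsin Z, encoded by Ctsz (544.6), Lamp2, the partner of Lamp1 (486.5), the tartrate-resistant acid phosphatase Acp5 (433.3) and cathepsin B, encoded by Ctsb (427.4). The lowest was Ap1m2, an epithelial adaptor subunit, at 5.7 per kb. Albumin, among the most abundant mRNAs of any liver, stood at only 1025.7 per kb in the same table, beside 568.8 for Psap. Whether this narrow upper range understates levels and differences of the most abundant members was not tested.

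Lysosome genes are known for a short promoter sequence, TCACGTGA, the core of the element that the transcription factors TFEB and TFE3 bind when they raise lysosomal gene expression. RefSeq promoter windows on GRCm38.p6, from 250 bases before to 50 bases after the start of transcription, were matched for 84 of the 105 members. TCACGTGA, which reads the same on both strands, occurred in 9 of the 84 (10.7%), against 2.11% of the 10682 tested genes with a window and 0.974% of all 32851 windows. The shorter CACGTG, which lies inside it, occurred in 21 members (25%), against 11.4% of tested genes. The longer form, with a G before and a C after the 8 letters, occurred in 2 members (2.38%, against 0.758%), Cln3 and Igf2r. The windows of 50 bases below mark 1 occurrence in each of the 9 members, with its 8 letters in capitals (the Ctsa window holds another, in lower case), and each sequence read 5′ to 3′ on the strand of the gene, so that the shared letters can be seen against flanks that differ.
Cd164, chr10:41519391-41519440, plus strand: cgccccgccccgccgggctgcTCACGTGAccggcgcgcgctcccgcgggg
Cln3, chr7:126583330-126583379, minus strand: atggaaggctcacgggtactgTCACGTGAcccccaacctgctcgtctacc
Ctsa, chr2:164833739-164833788, plus strand: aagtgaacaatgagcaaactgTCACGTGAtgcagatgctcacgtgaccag
Ctsd, chr7:142387898-142387947, minus strand: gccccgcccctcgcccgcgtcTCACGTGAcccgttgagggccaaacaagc
Gla, chrX:134601205-134601254, minus strand: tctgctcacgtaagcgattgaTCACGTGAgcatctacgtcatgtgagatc
Gnptg, chr17:25240110-25240159, minus strand: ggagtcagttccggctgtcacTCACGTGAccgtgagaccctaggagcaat
Igf2r, chr17:12769686-12769735, minus strand: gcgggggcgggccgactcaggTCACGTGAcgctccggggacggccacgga
Mcoln1, chr8:3500452-3500501, plus strand: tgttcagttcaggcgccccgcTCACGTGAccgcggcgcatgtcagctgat
Sumf1, chr6:108185567-108185616, minus strand: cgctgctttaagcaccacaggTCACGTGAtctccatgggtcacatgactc

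These 9 genes span the organelle's parts: the hydrolases Ctsa, Ctsd and Gla, the membrane proteins Cd164, Cln3 and Mcoln1, and Gnptg, Igf2r and Sumf1, which serve enzyme tagging, delivery and activation. A match is a description of the letters in this window and shows no binding.

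Between P5 and P14 lysosome genes moved in both directions, with a median difference near 0. With both injections combined (6 livers a day), 21 of 105 members were higher and 26 lower at P14 by limma with a Benjamini-Hochberg adjusted p under 0.05, 44.8% in all, and 48.8% of all 14104 genes tested passed the same threshold (23.9% higher and 24.8% lower), so the share that changed was near the background. The differences, given below as log2 differences of scaled count plus 1, had a median of -0.011 over the members and 0.0105 over all genes. Their size had a median of 0.173 among the members and 0.265 among all genes. Differences beyond 1 in either direction were found for 4 members (3.81%) and for 12.6% of all genes, and, where the mean reached 100, for 3.12% of 96 members and 7.69% of 9925 genes. The member counts leave out Ctsg (-5.07) and Atp6v0d2 (3.07), which hold the annotation but were left out by symbol. In 67.6% of the members the difference lay within 0.25 of 0, as it did for 47.9% of all genes. Within the scrambled livers alone 27 members passed (13 higher, 14 lower, with 35.2% of all genes passing), and within the mimic livers alone 33 passed (15 higher, 18 lower, with 33.4% of all genes passing).

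**Figure D1:**
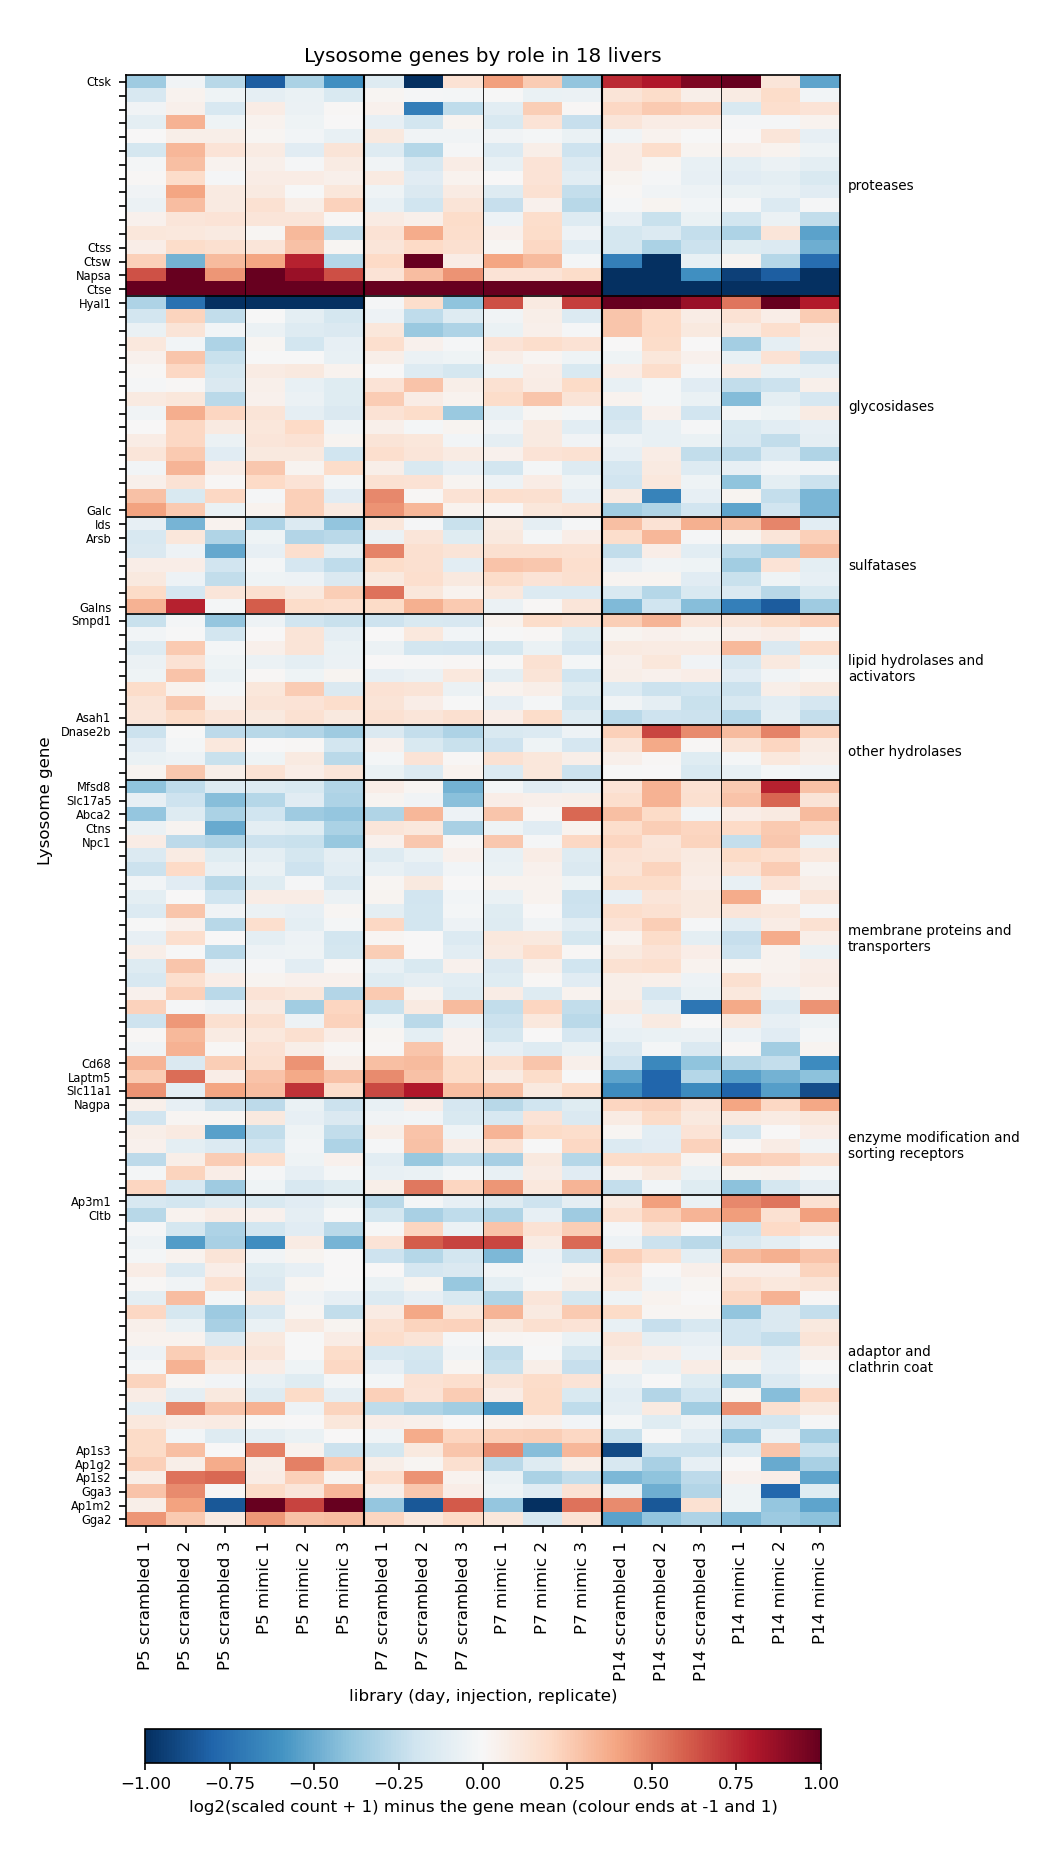
Each row is 1 of the 105 lysosome genes, grouped by role and ordered by the P14 against P5 difference (symbols are given for differences beyond 0.3), and each column is 1 of the 18 libraries; colour is the log2 of the scaled count plus 1 minus the gene's mean, and colours end at -1 and 1. Most rows are pale across all days, Ctse and Napsa are dark blue and Hyal1 dark red at P14, and the low-level genes Ap1m2, Ctsw and Ctsk also reach the ends of the colour scale in single libraries.

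**Figure D2:**
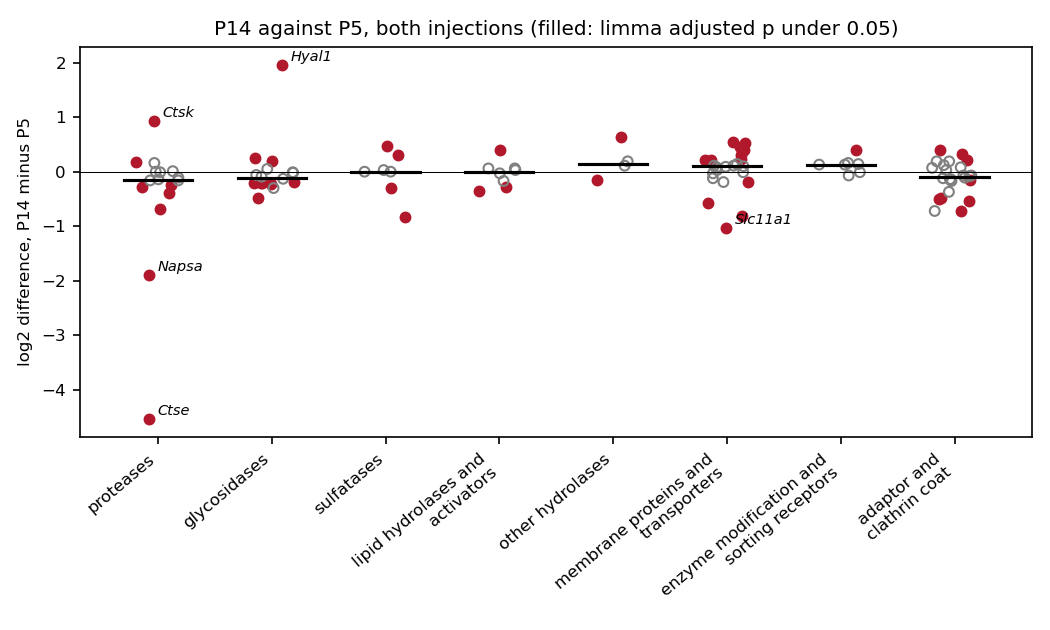
Each point is 1 lysosome gene, placed by role on the x axis and by its log2 difference between P14 and P5 on the y axis; filled points passed the limma threshold and black lines are role medians. The role medians lie between -0.147 and 0.148, while single members reach from -4.53 (Ctse) to 1.96 (Hyal1).

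Among the 16 proteases, 2 were higher and 6 lower at P14, with a median of -0.147. Ctse encodes cathepsin E, an aspartic protease known from the stomach lining and from red cells and immune cells. Its scaled counts at P5 were 768, 768 and 731 in scrambled and 684, 638 and 861 in mimic livers, at P7 they were 474, 542 and 586 and 519, 705 and 586, and at P14 they were 18, 21 and 25 and 57, 65 and 25. Every P14 liver lay far below every earlier liver. The P14 against P5 difference was -4.53 (SE 0.17, limma adjusted p 2.73e-13), a difference of 23.1-fold on this scale, and it was present in scrambled (-5.09) and mimic livers (-3.96).

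Napsa, which encodes the aspartic protease napsin A, known from lung and kidney, was 156, 263 and 136 in scrambled and 209, 183 and 157 in mimic livers at P5. It was 110, 124 and 137 and then 110, 110 and 114 at P7, and 40, 32 and 65 and then 52, 56 and 47 at P14. The P14 values lay below all others, with a difference of -1.90 from P5 (SE 0.17, limma adjusted p 2.26e-08). It was the only member lower in each of the P7 against P5, P14 against P7 and P14 against P5 comparisons. A covariate for transcript length, the correlation of each library's values with length, itself differed between days. With it only 1 gene of the whole table passed between P7 and P5. The Napsa difference in that fit was -0.56 (SE 0.27, limma adjusted p 0.505), beside -0.61 without the covariate. The lost call is therefore not particular to Napsa.

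The other proteases that fell changed less. Ctss, the cathepsin of antigen-presenting cells, had a median of 542 scaled counts at P5 (498 to 600) and 428 at P14 (350 to 452), ranges that do not overlap, and a difference of -0.39 (limma adjusted p 0.000262). Ctsw, a cathepsin of cytotoxic lymphocytes, fell by 0.68 from a low level, Ctsc, which activates the serine proteases of granules, by 0.28, and legumain (Lgmn), an asparagine-specific endopeptidase, by 0.24. The 2 that rose were Ctsk, the collagen-cleaving cathepsin of osteoclasts, and Ctso. Ctsk was 25 to 44 at P5 and 31 to 95 at P14, with a difference of 0.93 (SE 0.24, limma adjusted p 0.00358), and 1 P14 mimic liver, at 31, stayed within the P5 range.

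The widely expressed cathepsins differed little between P5 and P14. Ctsb, the most abundant of the protease genes by scaled count, was 1993 to 2492 at P5 and 1885 to 2134 at P14 (difference -0.11, limma adjusted p 0.176), Ctsl was 1035 to 1475 and 1135 to 1326 (-0.01), and Ctsd was 712 to 959 and 674 to 738 (-0.16, limma adjusted p 0.0813). The day ranges overlapped in all 3 genes. Under quantile normalization Ctsb (-0.20) and Ctsd (-0.22) passed the threshold, as Ctsd also did without P5 scrambled replicate 1 (-0.21) and with a covariate for transcript length (-0.13). The tripeptidase Tpp1 had a difference of 0.00 (SE 0.05).

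**Figure D3:**
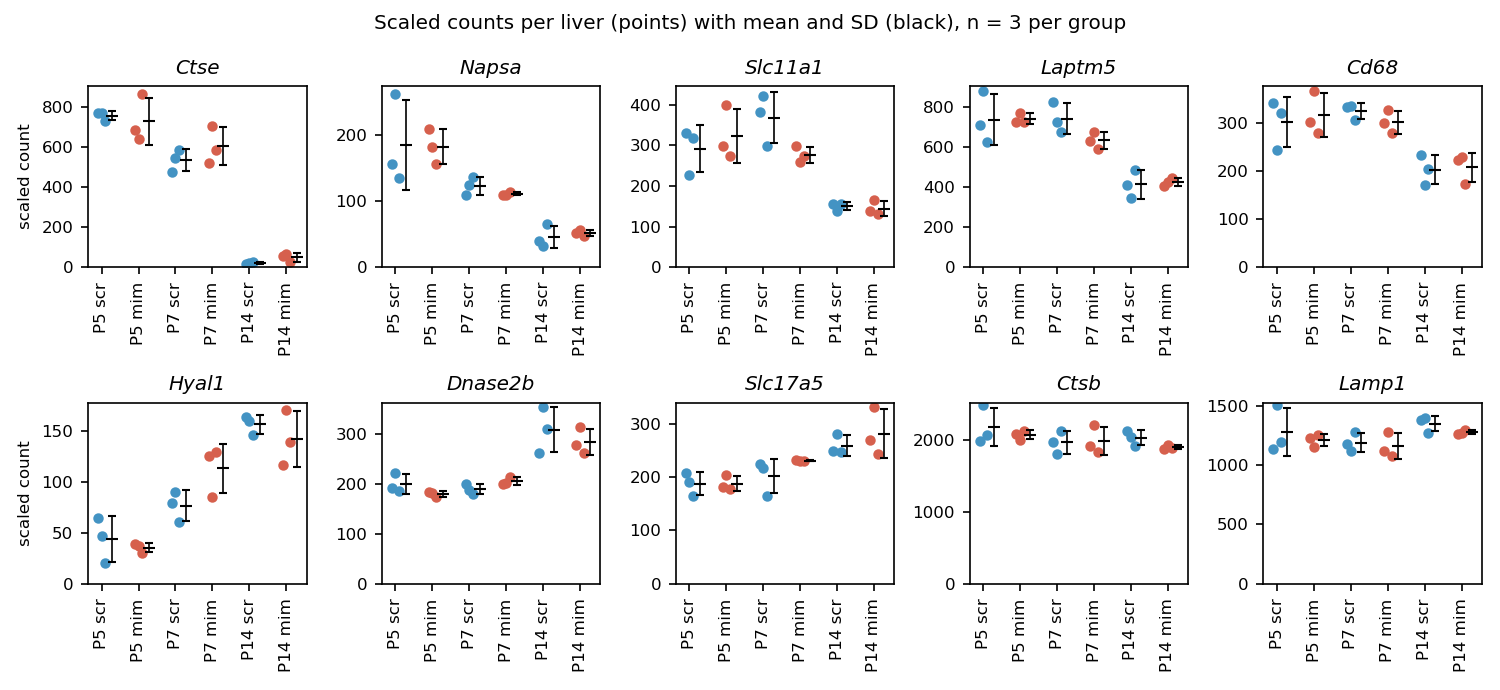
Each panel shows 1 gene's scaled counts in the 6 groups (scr, scrambled, blue; mim, mimic, red; 3 livers each), with the group mean and SD in black and the y axis from 0. Ctse drops from 638 to 861 at P5 to 18 to 65 at P14, Hyal1 climbs at each day, and Ctsb and Lamp1 keep overlapping ranges.

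Among the 16 glycosidases, 3 were higher and 6 lower at P14, with a median of -0.109. Hyal1, a hyaluronidase, had the largest rise of all 105 members. It was 64, 47 and 20 in scrambled and 39, 37 and 30 in mimic livers at P5, 79, 90 and 60 and then 125, 85 and 129 at P7, and 163, 159 and 146 and then 116, 170 and 139 at P14. All P14 values lay above all P5 values, and the difference was 1.96 (SE 0.21, limma adjusted p 3.3e-07). It was the only member higher in all 3 comparisons of days. With the same covariate for transcript length, which itself differed between days, its P7 against P5 difference was 0.66 (SE 0.28, limma adjusted p 0.467). No member and only 1 gene of the whole table passed between P7 and P5 in that fit, so the lost call is not particular to Hyal1. Hyal1 overlaps the N-acetyltransferase gene Nat6 on the same strand, which also rose (0.72, limma adjusted p 2.39e-06), and the part of shared reads in either value was not tested.

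Fuca1, an alpha-fucosidase (0.25), and Naglu, which acts on heparan sulfate (0.20), also rose. Among the 6 that fell were Galc, which splits galactosylceramide, with a median of 173 at P5 (147 to 204) and 123 at P14 (107 to 135) and a difference of -0.49 (limma adjusted p 0.000383), the beta-glucuronidase Gusb (-0.23), the sialidase Neu1 (-0.20), the beta-galactosidase Glb1 (-0.20) and Hexa (-0.19), a subunit of an enzyme that breaks down GM2 ganglioside. Gaa, which digests glycogen, differed by 0.05 (SE 0.08) and did not pass the threshold.

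Of the 7 sulfatases 2 were higher and 2 lower, and the others did not pass. Ids, which removes sulfate from iduronate in heparan and dermatan sulfate, was 179 to 254 at P5 and 231 to 348 at P14 (0.47, limma adjusted p 0.000947), and Arsb, which acts on dermatan sulfate, differed by 0.31 (limma adjusted p 0.00364). Galns, which acts on keratan and chondroitin sulfate, was 194 to 335 at P5 and 110 to 171 at P14 (-0.83, limma adjusted p 1.32e-05), and Arsa, which acts on sulfatide, fell by 0.30. The Galns ranges did not overlap.

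Of the 8 lipid hydrolases and their activators, 1 rose and 2 fell. Smpd1, the acid sphingomyelinase, was 302 to 391 at P5 and 430 to 500 at P14, with no overlap (0.39, SE 0.07, limma adjusted p 8.37e-05). Asah1, the acid ceramidase that acts on the product of Smpd1, was 591 to 631 at P5 and 453 to 517 at P14, also with no overlap (-0.35, SE 0.06, limma adjusted p 5.41e-05). Gm2a, the activator for GM2 ganglioside breakdown, fell by 0.28. Psap (-0.03) and Lipa, the acid lipase that releases cholesterol from lipoproteins (0.03), did not pass, although under quantile normalization Psap did (-0.13, limma adjusted p 0.0243).

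Among the 4 other hydrolases, Dnase2b, an acid DNase, ranged from 174 to 222 on P5, from 180 to 215 on P7 and from 263 to 354 on P14 (0.64 for P14 against P5, limma adjusted p 2.3e-06), so all P14 livers lay above the rest. On the opposite strand it overlaps the urate oxidase gene Uox (mean 1492.9 scaled counts, beside 228.3 for Dnase2b), which rose by 0.34. The sources used here do not say whether reads were counted by strand, so the 2 genes cannot be told apart where they overlap. Acp5 fell by 0.16.

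The 23 membrane proteins and transporters moved in both directions, with 8 higher, 4 lower and a median of 0.0954. The 8 rises lay between 0.21 and 0.55. Slc17a5, the exporter of sialic acid, had a median of 186 at P5 (164 to 208) and 259 at P14 (242 to 331), ranges without overlap, and a difference of 0.52 (SE 0.09, limma adjusted p 0.000163). Mfsd8, a multi-pass membrane protein of lysosomes, rose by 0.55 (it overlaps Gm2011 on the opposite strand, which rose by 1.12), Abca2, a lipid transporter, by 0.45, Ctns, the exporter of cystine, by 0.40, and Npc1, which exports cholesterol, by 0.31. Ctns was tightly grouped at P14, at 262 to 278, after 163 to 236 at P5. The other 3 membrane proteins rose less: Cd164 by 0.23, Lamp2 by 0.22 and Scarb2, also known as LIMP-2, by 0.21. The Lamp2 and Scarb2 differences did not pass under quantile normalization (0.09 and 0.11). Lamp1 was 1132 to 1504 at P5 and 1260 to 1393 at P14 (0.08, limma adjusted p 0.342) and reached the threshold only without P5 scrambled replicate 2 (0.14).

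Of the 4 membrane genes that fell, 3 are known from blood cells and macrophages. Slc11a1, the metal transporter of the macrophage phagosome, was 331, 226 and 318 in scrambled and 299, 399 and 273 in mimic livers at P5, and 156, 139 and 155 and then 138, 165 and 130 at P14 (-1.04, SE 0.12, limma adjusted p 4.81e-07). Laptm5, a lysosomal protein of blood-forming cells, was 623 to 877 at P5 and 343 to 487 at P14 (-0.81, SE 0.09, limma adjusted p 3.8e-07). Cd68, a macrophage glycoprotein, was 244 to 368 at P5 and 172 to 233 at P14 (-0.58, SE 0.10, limma adjusted p 0.000115). In all 3 genes every P14 liver lay below every P5 liver. Npc2, the soluble cholesterol carrier that works with Npc1, fell by 0.19 while Npc1 rose.

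Markers of blood cells and macrophages moved with these genes. All 10 markers of neutrophil precursors were lower at P14 than at P5 (median -2.60), and their summed level was 4012 to 7915 at P5 and 611 to 1420 at P14. Of the 8 red cell precursor markers 7 were lower (median -2.80, summed 4322 to 5869 and then 847 to 1456), as were 6 of 6 B cell markers (median -1.23) and 8 of 12 macrophage markers (median -0.30, summed 7111 to 8573 and then 5156 to 6601). The 8 macrophage markers that passed fell by 0.23 (C1qa) to 0.82 (Adgre1), the other 4 (Clec4f, Vsig4, Folr2 and Cd163) had differences from -0.18 to 0.03, and none of the 12 macrophage markers was at 0 in any group. Markers of stellate cells and fibroblasts were higher in 5 of 6 (median 0.65) and hepatocyte markers in 4 of 9 (median 0.19), while 3 of 6 sinusoidal endothelium markers were lower (median -0.22). The part of these cells in the differences of Ctse, Napsa, Slc11a1, Laptm5, Cd68, Ctss, Ctsw, Ctsc and Ctsk was not tested.

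Of 7 genes for enzyme modification and sorting receptors only Nagpa passed, the enzyme that uncovers the mannose 6-phosphate tag, at 136 to 169 at P5 and 179 to 214 at P14 (0.39, limma adjusted p 0.000418). The receptors M6pr (-0.01, SE 0.06) and Igf2r (-0.07, SE 0.10) did not pass. Among the 24 adaptor and clathrin coat genes, 3 were higher and 5 lower, with a median of -0.0985. Ap3m1, a subunit of the AP-3 complex that carries membrane proteins to lysosomes, was 380 to 412 at P5 and 412 to 626 at P14 (0.40, limma adjusted p 0.000416), the clathrin light chain Cltb differed by 0.32 and the AP-1 subunit Ap1g1 by 0.21. Gga2, which collects mannose 6-phosphate receptors at the Golgi, was 311 to 397 at P5 and 201 to 235 at P14 (-0.72, SE 0.07, limma adjusted p 2.06e-07), with no overlap. Its relative Gga3 fell by 0.53, the AP-1 subunits Ap1s2 by 0.50, Ap1g2 by 0.48 and Ap1m1 by 0.16, while Gga1 did not pass (-0.07).

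Calls near the threshold were unsteady in both directions. Of 46 named members called between P14 and P5, 8 lost the call at least once when 1 of the 12 P5 and P14 libraries was left out: Acp5 (10 of 12 omissions, range -0.18 to -0.12), Ctsw (8, -0.84 to -0.52), Glb1 (8, -0.26 to -0.16), Naglu (7, 0.18 to 0.23), Neu1 (5, -0.24 to -0.15), Ap1g1 (5, 0.18 to 0.28), Ctsc (4, -0.37 to -0.21) and Ap1m1 (1, -0.18 to -0.14). All of these but Ctsc also lost it under at least 1 other setting of the processing, and Arsa did under quantile normalization (-0.19, limma adjusted p 0.0984).

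Genes that supply the organelle from outside the group also moved in both directions, in lists of which a smaller share passed than the 48.8% of all genes. Of 18 genes of the MiT/TFE transcription factors and of nutrient sensing at the lysosome, 3 were higher and 2 lower at P14 than at P5 (median -0.03). Tfeb was 114 to 183 at P5 and 174 to 230 at P14 (0.42, limma adjusted p 0.00498), Mitf differed by 0.65 and Rptor, a subunit of the mTORC1 kinase complex, by 0.21, while Tfec, a relative of Tfeb known from macrophages, fell by 0.95 and Slc38a9, an arginine sensor of the lysosomal membrane, by 0.48. Of the 9 members with TCACGTGA in the promoter window 1 passed, Cd164 (0.23), and the 9 differences ran from -0.16 to 0.23. Of the 75 members with a window that lacks the sequence, 19 were higher and 19 lower, beside 48.8% of all genes passing. The remaining members had no window, and a part of the sequence in these differences was not tested.

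The proton pump that acidifies lysosomes had 19 of its 25 listed genes tested, 4 higher and 2 lower (median 0.03). Atp6v0d2, a subunit isoform known from osteoclasts and macrophages, was 26, 24 and 48 in scrambled and 22, 25 and 8 in mimic livers at P5, 43, 33 and 28 and then 79, 55 and 74 at P7, and 164, 222 and 166 and then 227, 207 and 214 at P14. The P14 values lay above all others (3.07, SE 0.23, limma adjusted p 3.2e-09). Atp6v0e2 also rose (1.05) and Atp6v0a1 fell by 0.37. Of 16 tested genes for tethering and fusion 1 was higher and 1 lower, and of 20 autophagy genes 5 were higher, among them Gabarapl1 and Ulk2 at 0.59 each, and 3 lower, among them Becn1 at -0.17. In the proton pump, tethering and autophagy lists, which are short, the share that passed lay below the 48.8% of all genes tested.

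At P7 the lysosome genes parted by transcript length. Against P5, 14 members were higher and 11 lower (23.8%, with 26.9% of all genes passing, 13.7% higher and 13.2% lower). All 14 that were higher had a longest transcript at or above the members' median of 2976 bases, and 7 of the 11 that were lower had one below it. They included the long-transcript genes Igf2r, the large mannose 6-phosphate receptor (0.38), Abca2 (0.44), Npc1 (0.35), Sort1, the sorting receptor sortilin (0.32), and Ap4e1, a subunit of the AP-4 complex (0.78), beside Hyal1 (1.28). Between P7 and P14, 24 members were higher and 29 lower (50.5%, with 50.3% of all genes passing, 24% higher and 26.3% lower). In 9 members a rise from P5 to P7 was followed by a fall to P14 with no difference called between P5 and P14, among them Ap3b1, Ap3d1, Ap4e1, Arsg, Cltc, Igf2r, Manba and Sgsh. This pattern was counted in the members only, so it is not compared with all genes. Igf2r ranged from 656 to 978 on P5, from 874 to 1215 on P7 and from 632 to 826 on P14. The P7 against P5 counts moved with single livers: 8 were higher without P5 mimic replicate 3, P7 mimic replicate 1 or P7 scrambled replicate 2, 20 were higher and 18 lower without P5 scrambled replicate 1, and 1 was lower without P7 mimic replicate 1.

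The same pattern ran through the whole table. Across genes, which are not independent replicates and share these libraries, the rank correlation of the P7 against P5 difference with transcript length was 0.47 over the 105 members and 0.481 over 14096 tested genes. Within a library, the rank correlation of values, relative to each gene's mean, with length was -0.352 to 0.197 at P5, 0.0534 to 0.485 at P7 and -0.241 to 0.0162 at P14. That correlation was then used as a covariate, an alternative added after the data were seen. With it, 0 members passed between P7 and P5 (1 gene of the whole table did). Between P14 and P7, 9 were higher and 13 lower (23.4% of all genes passed). Between P14 and P5, 26 were higher and 31 lower (54.5% of all genes passed). The covariate came from the same values and itself differed between days (median -0.239 at P5, 0.322 at P7 and -0.099 at P14). This fit therefore cannot separate transcript length from day. Leaving out P7 scrambled replicates 2 and 3, since 5 skeletal muscle genes summed to 20, 366 and 1452 across the 3 P7 scrambled livers and to at most 17 in the other groups, left 2 higher and 1 lower between P7 and P5, with the remaining P7 scrambled liver assumed to vary like the other groups. Within scrambled livers 0 members passed between P7 and P5 (limma; 0% of all genes; 17 members had an unadjusted p under 0.05), and within mimic livers 6 did, all higher (10% of all genes).

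**Figure D4:**
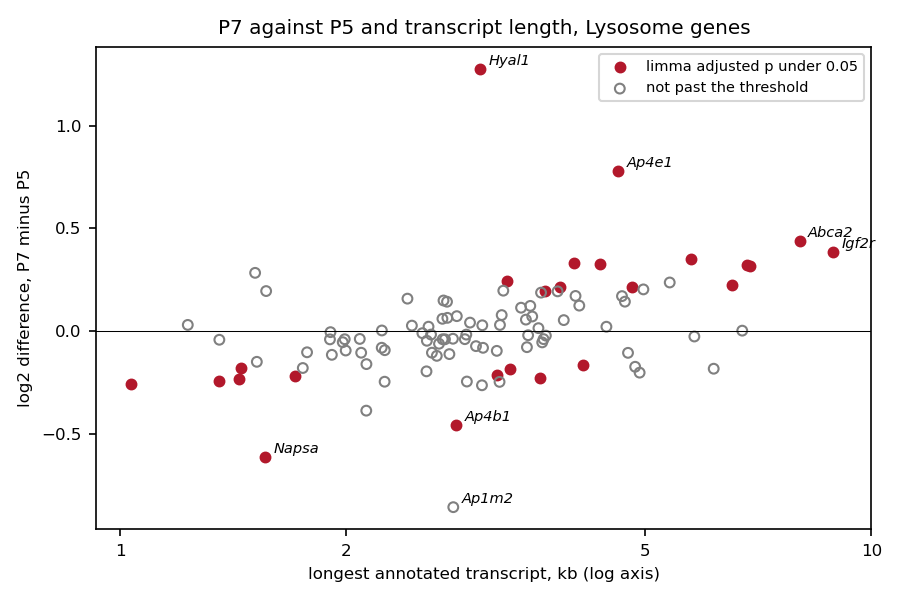
Each point is 1 lysosome gene, with its longest annotated transcript in kb on a log x axis and its log2 difference between P7 and P5 on the y axis; filled points passed the limma threshold. The filled points above 0 sit at the right of the plot and most of those below 0 at the left, and the rank correlation over the 105 genes was 0.47.

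In all, 32 of the 105 members (30.5%) were called in none of the 3 comparisons of days, as were 30% of all genes tested. These included Ctsa, Ctsb, Ctsd, Ctsh, Ctsl and Tpp1 among the proteases, Gaa and Gla among the glycosidases, Lamp1, Cln3, Mcoln1 and Tcirg1 among the membrane proteins, and Lipa, Ppt1, Psap and M6pr. A further 16 were not called between P5 and P7 and were lower at P14 than on either earlier day, and 13 were not called between P5 and P7 and were higher at P14 than on either earlier day. These 16 and 13 were counted in the members only. Of all genes tested, 50.3% passed between P14 and P7 and 48.8% between P14 and P5, so the counts do not set the members apart.

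The mimic left no lysosome gene past the threshold. In limma with Benjamini-Hochberg adjustment 0 of 105 members were called between mimic and scrambled livers at P5 (0% of all genes), at P7 (0.00709%), at P14 (0.0213%), averaged over the days (0.00709%) or in the test of a mimic effect that differs between days (0.00709%). At an unadjusted p under 0.05 there were 1, 5, 3, 1 and 4 members in that order. Mimic minus scrambled, the members' median difference came to -0.0264 on P5, -0.0121 on P7 and -0.0287 on P14, and to -0.028 averaged over days. The median deviation of a single liver had a pooled SD of 0.0428 within groups. A difference between means of 3 livers varies less than that, and its own error was not computed.

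**Figure D5:**
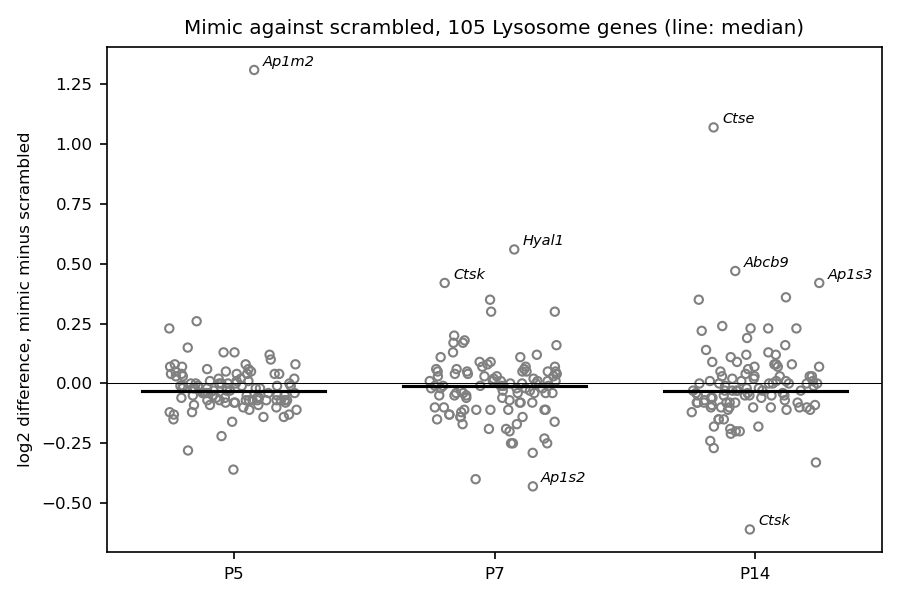
Each point is 1 of the 105 lysosome genes at P5, P7 or P14, with the log2 difference between mimic and scrambled livers on the y axis and the median as a line; no point passed the limma threshold. The medians lie between -0.0287 and -0.0121, and Ap1m2 at P5 (1.31) and Ctse at P14 (1.07) lie farthest out.

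Ctse came nearest to the threshold. At P14 its mimic values of 57, 65 and 25 met scrambled values of 18, 21 and 25, so 2 mimic livers lay above and the remaining one tied with the highest scrambled liver. The difference was 1.07 (SE 0.24, unadjusted p 0.00028, limma adjusted p 0.164), and it passed without P14 mimic replicate 3 (1.48, limma adjusted p 0.000196), as did the average over days (0.53, limma adjusted p 0.0349) and the difference between days (limma adjusted p 0.0144). P14 mimic replicate 3 was the tied liver, so leaving it out had to raise the P14 difference. The other omissions at P14 gave values from 0.81, and no other single omission passed in any of these comparisons. Beside this gene, the summed red cell precursor markers at P14 were 847 to 1116 in scrambled and 1192 to 1456 in mimic livers, the neutrophil precursor markers 611 to 1131 and 963 to 1420, the B cell markers 217 to 413 and 390 to 486, and the macrophage markers 5156 to 6130 and 5568 to 6601. The stellate and fibroblast markers were 6886 to 7249 in scrambled and 4573 to 6568 in mimic livers, the hepatocyte markers 16438 to 18672 and 14532 to 17541, and the sinusoidal endothelium markers 3192 to 3504 and 3227 to 3529. The part of these cells in the Ctse difference was not tested.

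The next smallest p-values were as follows. At P7 Smpd1 was 342, 356 and 354 in scrambled and 406, 449 and 439 in mimic livers, without overlap (0.30, SE 0.09, limma adjusted p 0.364), Ap1s2 differed by -0.43 and Ctsf, a cysteine cathepsin, by 0.35. At P14 the AP-3 subunits Ap3b1 (-0.33) and Ap3m1 (0.24) went in opposite directions, and neither passed (limma adjusted p 0.783 and 0.904). At P5 Ap1m2 was 14, 18 and 7 in scrambled and 28, 22 and 51 in mimic livers (1.31, SE 0.52, limma adjusted p 1), M6pr differed by -0.13 and Ap1s2 by -0.28. Averaged over days, Galns differed by -0.19 and Smpd1 by 0.10 (limma adjusted p 1 for both).

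Groups of 3 that did not overlap were found in 3 members at P5 (2.86%, against 5.01% of all genes), 7 at P7 (6.67%, against 14%) and 10 at P14 (9.52%, against 9.31%). Over all genes 700 had all mimic values higher and 613 all of them lower at P14. Among the members only Ap4s1 had all of them higher, and the other 9, among them Ap3b1, Ctsa, Ctsd, Ctsf, Ctsh, Hgsnat, Man2b1 and Psap, had all of them lower. None of these 10 passed the limma threshold, and their share was near that of all genes. Ctsd, for example, was 738, 713 and 705 in scrambled and 698, 696 and 674 in mimic livers at P14, so that the lowest scrambled and the highest mimic liver lay close together. Its difference was -0.06 (SE 0.11, limma adjusted p 0.999).

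A microRNA pairs with mRNAs mainly through its seed, bases 2 to 8 from the 5′ end, shown in capitals in the mature sequence from RefSeq (GRCm38.p6, chr11:70234730-70234751, plus strand), which the mimic copies.
mmu-miR-497a-5p: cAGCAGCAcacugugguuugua
The matching site, TGCTGCT in the DNA letters of the mRNA strand, lay in the annotated 3′ UTR of 19 of 105 members (18.1%), against 24.5% of 13190 tested genes with a 3′ UTR in GENCODE M21. In 3 members a site is followed by an A, the form that microRNAs bind best. Their sites are shown with 10 bases on either side and the 7 letters in capitals, in the order Ap4m1, Dnase2b and Scarb2.
Ap4m1, chr5:138179271-138179297, plus strand: tggtcaagacTGCTGCTagcttgaggc
Dnase2b, chr3:146581801-146581827, minus strand: aggtgctcctTGCTGCTaatatatgct
Scarb2, chr5:92442144-92442170, minus strand: gcctcccaagTGCTGCTattacaggca

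The 19 members with a site had a median difference, mimic minus scrambled, of -0.0229 at P5, 0.00517 at P7 and 0.00254 at P14, beside -0.027, -0.0166 and -0.0298 in the 86 members without one, and no member of either set was called. The AP-4 subunit Ap4m1 was 177, 171 and 195 in scrambled and 159, 178 and 175 in mimic livers at P5. The membrane receptor Scarb2 was 1104, 1040 and 927 in scrambled and 1036, 1117 and 1004 in mimic livers at that day. Dnase2b was 192, 222 and 186 in scrambled and 184, 182 and 174 in mimic livers, with all 3 mimic values lower. Of these 3 genes Dnase2b alone had groups that did not overlap at P5, as in 5.01% of all genes, and its groups overlapped at P7 and P14. The Dnase2b difference at P5 was -0.15 (SE 0.11, limma unadjusted p 0.208) and did not pass.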

How the data were processed

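Stranded mRNA libraries of 18 livers were sequenced, per the labels' protocols. Per the submitters' processing notes the genome was mm10 (GRCm38) and the tools included DESeq2 1.26.0, featureCounts 1.6.5, STAR 2.6.1d, Trimmomatic 0.39 and Picard 2.21.7. The deposited values are whole-number scores: judged from the values, gene counts that the authors divided by a size factor and rounded, so raw depth is unknown and no count model was fitted. Groups came from the sample titles. The 105 members, their roles, the other lists and the tests were chosen with earlier results of these data known.

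Genes with a mean of 10 or more (14104) were tested with limma 3.58.1 in R 4.3.3 on log2(value + 1), which understates changes of low genes, with 6 group means, all 18 libraries, a mean-variance trend and Benjamini-Hochberg adjustment over all genes (threshold 0.05). Named were, per role, up to 4 members rising and 4 falling most between P5 and P14 among those called, a list of core members, and the 3 members of smallest p for each mimic comparison; others were named to show a pattern, after their values were seen. GENCODE M21 gave the transcript lengths and 3′ UTRs, and RefSeq (GRCm38.p6) the promoters and the microRNA. Some members are counted but not reported by name here. Of the members, 23 overlap another tested gene, 2 of them on the same strand. Same-numbered mimic and scrambled replicates deviated together with correlations from -0.234 to 0.244, so numbers were not treated as pairs. The script was tested on simulated data. Other software was pandas 2.3.3 and numpy 2.4.6 under Python 3.11.15, matplotlib 3.10.9, and the R package for tables in version 1.17.8.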

Additional observations from a re-analysis of the deposited data

How the results depend on the processing

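Between P14 and P5 the alternatives (TMM scaling, quantile normalization, a pseudocount of 5, no filter on low values, a minimum mean of 50, the compared libraries only, no trend, a replicate block and a length covariate) gave 20 to 26 members higher and 21 to 32 lower, and leaving out 1 library gave 19 to 24 and 22 to 28 (median -0.0532 to 0.0243). Differences near 0 changed sign: Ctsl 0.03 and M6pr 0.01 with the length covariate, Gaa -0.02, Lamp1 -0.03 and Lipa -0.08 under quantile normalization, M6pr 0.00 under TMM. Leaving out 1 library gave Ctsl -0.08 to 0.05, Gaa -0.01 to 0.11, Igf2r -0.14 to 0.01, M6pr -0.04 to 0.02 and Psap -0.06 to 0.03. The P7 calls were the least steady. P7 against P5, at 14 higher and 11 lower, became 0 and 0 with the length covariate (median 0.0374), 9 and 2 with no filter, 2 and 1 without P7 scrambled replicates 2 and 3 together, and 7, 5 and 17 lower with no trend, the compared libraries only and quantile normalization. Leaving out 1 library gave 8 to 20 higher (fewest without P5 mimic replicate 3, P7 mimic replicate 1 or P7 scrambled replicate 2) and 1 to 18 lower (1 without P7 mimic replicate 1, 18 without P5 scrambled replicate 1), with medians from -0.0398 to -0.00692. P14 against P7, at 24 and 29, became 9 and 13 with the length covariate (median -0.0965), and 7 were higher without P7 scrambled replicates 2 and 3 together; leaving out 1 library gave 18 to 28 and 26 to 32. The cause was not tested, and the length covariate itself differed between days. For mimic against scrambled, 0 members were called under each alternative except that 1, Ctse, was called at P14, averaged over days and in the test between days, without P14 mimic replicate 3 (0 to 1 over single omissions). The median became 0.037 at P7 under TMM and ran from -0.0549 to 0.0318 at P5 (highest without P5 scrambled replicate 2). The replicate block, which rests on numbers that do not pair the livers, gave 21 higher and 25 lower between P14 and P5, and 14 and 8 between P7 and P5. Mimic and scrambled livers correlated best with their own number for replicate 3 at P5 and P7 and replicates 1 and 2 at P14, and not otherwise. Raw depth is not known, so counting error could not be separated from the spread between livers.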
